A study of Mus musculus with 12 samples.

Results

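Atf3, Egr3, Nfil3, Ets1 and Cebpb encode 5 transcription factors among the 734 endogenous genes of a NanoString nCounter panel for mouse myeloid innate immunity, read here in cultured mast cells. They were chosen by their measured counts in these same libraries, namely their increase after stimulation through IgE and whether that increase differed between genotypes. The choice used the counts of all 4 groups, since an increase is measured from the unstimulated level. Their responses, their genotype differences with and without stimulation and the difference between responses are therefore given as descriptions, with no test. All 5 were among the 545 genes that reached at least 20 counts in at least 3 libraries, Atf3 through its stimulated libraries alone.

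The cells were primary mast cells grown from mouse bone marrow in IL-3, which are not a cell line. Cas9 ribonucleoproteins cut either Kit, which encodes the receptor for stem cell factor, or Mettl3, which encodes the catalytic subunit of the enzyme that methylates adenosine in mRNA. A zsGreen reporter was inserted at the cut, and cells with high zsGreen were sorted, so the c-Kit KO controls carry a cut, a reporter and a sort as well. Cells of each genotype were left unstimulated (US) or given IgE plus antigen for 4 h (IgE), which gives 4 groups of 3 samples and 12 libraries. nCounter probes carry a fluorescent barcode and are counted on the RNA without amplification. Endogenous counts summed to between 504238 and 737910 per library. Values below are counts scaled by the housekeeping genes of each library, called normalized counts. Each probe captures its RNA with its own efficiency, so levels of a gene were compared between libraries. Where a marker is named for the highest counts of its list, this orders probe counts and not amounts of RNA.

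Antigen that crosslinks IgE on its high-affinity receptor starts kinase and calcium signalling in mast cells, and within hours new transcription of cytokine genes follows. Early-response factors such as those of the EGR family are made first and act on later genes. Factors of the basic leucine zipper (bZIP) class, which bind DNA as pairs, and of the NFAT and NF-kB families take part in the same wave.

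The labelled cell type was checked against marker genes. All 10 mast cell markers passed the count filter, and their summed normalized counts averaged 417630 in c-Kit KO US and 423700 in Mettl3 KO US cells, with the probe of Cpa3, a granule protease, counted most. With IgE the sums were 244020 ± 60534 in c-Kit KO and 199890 ± 50464 in Mettl3 KO cells (SD, n = 3). Most counts in these sums come from the probes of Cpa3, Cma1 and Fcer1a, and single markers moved both ways. By edgeR (quasi-likelihood test, adjusted p under 0.05 by Benjamini-Hochberg), Hdc was called higher with IgE (2.22 in c-Kit KO and 2.27 in Mettl3 KO cells) and Ms4a2 lower (-1.82 and -2.19). Kit was called lower in c-Kit KO cells (-1.10), and Fcer1a (-1.63) and Cpa3 (-1.52) in Mettl3 KO cells, which makes 3 and 4 of the 10. Of all 545 genes, 103 and 178 were called in these comparisons. Macrophage markers summed to at most 498 in any library, neutrophil markers to at most 112.6, eosinophil markers to at most 159, dendritic cell markers to at most 103 and lymphocyte markers to at most 113. The macrophage probe with the highest counts was that of Cd68, at 108 in c-Kit KO US and 211 in Mettl3 KO US cells. The count filter was passed by 7 of 11 macrophage, 2 of 7 neutrophil, 2 of 6 dendritic cell and 2 of 5 lymphocyte markers. None of these tested markers was called in any comparison by edgeR. Siglecf, counted here as an eosinophil marker, was the exception among the other lineages and rose with IgE by 1.58 in c-Kit KO and 2.18 in Mettl3 KO cells on the log2 scale. Its unstimulated means were 15.8 and 18.9 normalized counts, and the negative control means of the libraries were 7.13 to 22.8 counts. Both folds thus depend on the background. In bulk samples, fewer cells of a type and less RNA per cell cannot be told apart.

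Kit, the gene edited in the controls, gave 1856, 2856 and 2826 normalized counts in c-Kit KO US libraries and 4057, 2533 and 2456 in Mettl3 KO US libraries, in the order of replicates 1, 2 and 3. After IgE it gave 1159, 1613 and 738 in c-Kit KO and 1845, 1771 and 1550 in Mettl3 KO cells. The genotypes overlapped in both conditions. Mettl3 KO minus c-Kit KO was 0.26 ± 0.32 without and 0.56 ± 0.32 with stimulation on the log2 scale, and edgeR called neither. The probe lies at base 4275 of the transcript, 3' of the cut. The inserted reporter ends in a polyadenylation signal, so a transcript that stops there would lack this place, while one with a small insertion or deletion would keep it. Counts at this probe therefore do not decide whether the c-Kit protein was lost, which the panel does not read, and Mettl3 has no probe on it. The names c-Kit KO and Mettl3 KO are the labels of the libraries.

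The library numbered 3 of the stimulated Mettl3 KO cells stood apart from the other libraries of its group in several of the genes below. Values without it are given for some of these genes. Its replicate number is that of its sample title; another source of the study gives this library a different number, so its pair values below rest on the title. Its deviations from the group mean correlated with those of the other libraries numbered 3. The values were 0.381 (c-Kit KO US), 0.289 (c-Kit KO IgE) and 0.483 (Mettl3 KO US). With the 6 libraries numbered 1 or 2 in those groups they correlated negatively. The 3 deviations of a group cancel out, so these negative values are no separate support for the number. The library also had the highest mean of the negative control probes, 22.8 counts, against 7.13 to 20.2 in the other libraries. The c-Kit KO libraries numbered 1 had the lowest positive control counts, with geometric means of 738 (US) and 768 (IgE) against 1195 to 1706 in the rest. The part of these technical values in the results was not tested.

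Atf3 encodes a bZIP factor of the stress response that forms homodimers and pairs with Jun proteins. Its normalized counts were 10.96, 9.18 and 10.8 in c-Kit KO US cells and 46.6, 64.6 and 57.9 after IgE. In Mettl3 KO cells they were 12.2, 19.6 and 10.4 without stimulation and 1932, 466 and 70.4 after IgE. All 3 stimulated Mettl3 KO libraries were above all 3 stimulated c-Kit KO libraries, but replicate 3 by a narrow margin and replicate 1 by far. No unstimulated library of either genotype had an Atf3 count above the mean plus 2 SD of its own negative controls, so the resting level is background, and the folds against it depend on how background is handled.

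Fitted log2 fold changes of Atf3 after IgE were 2.44 ± 0.89 (SE) in c-Kit KO and 5.89 ± 0.84 in Mettl3 KO cells. The stimulated genotypes differed by 3.86 ± 0.77, the rank 4 of 545 genes by log2 fold change, and the responses by 3.45 ± 1.22. In the stimulated difference Cebpb ranked 25, Egr3 28, Ets1 111 and Nfil3 118. These values entered the choice of the factors, so nothing is read from the ranks. With counts under 20 set to 20, the responses were 1.31 and 5.24, and with the negative control mean subtracted they were 5.04 and 9.41. In same-numbered pairs the response was 1.99 in c-Kit KO against 7.20 in Mettl3 KO cells for replicate 1, 2.69 against 4.50 for replicate 2 and 2.32 against 2.64 for replicate 3. The c-Kit KO responses thus lay close together, and the Mettl3 KO responses spread over more than 4 log2 units. Without the stimulated Mettl3 KO library of replicate 1 the stimulated difference was 2.24 ± 0.60, and without that of replicate 3 it was 4.41 ± 0.48.

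Cebpb encodes a bZIP factor of the C/EBP family, known for its part in myeloid gene expression and in the induction of inflammatory genes. It gave 105.5, 178 and 72.7 normalized counts in c-Kit KO US cells and 161, 250.2 and 189.7 after IgE. Mettl3 KO cells gave 119, 154 and 60.7 without stimulation and 959, 735 and 223.5 after IgE. The c-Kit KO groups overlapped, since replicate 2 was higher unstimulated than replicate 1 stimulated. Stimulated Mettl3 KO libraries were all above the unstimulated ones of both genotypes, and replicate 3 lay within the range of the stimulated c-Kit KO libraries.

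The IgE response of Cebpb was 0.76 ± 0.51 in c-Kit KO and 2.53 ± 0.51 in Mettl3 KO cells on the log2 scale. The stimulated genotypes differed by 1.67 ± 0.51 and the responses by 1.77 ± 0.73. Replicate 1 responded by 0.61 in c-Kit KO against 3.00 in Mettl3 KO cells, replicate 2 by 0.49 against 2.25 and replicate 3 by 1.37 against 1.86. The Mettl3 KO response was the greater in each of the 3 pairs, with the smallest gap in replicate 3. Without the stimulated Mettl3 KO library of replicate 3, the difference between responses was 2.18 ± 0.59. With the replicate number as a block and all libraries, it was 1.59 ± 0.52.

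Egr3 encodes a zinc finger factor of the EGR family, an early-response gene of antigen receptor signalling. Its normalized counts were 179, 29.8 and 17.0 in c-Kit KO US cells and 1427, 95.8 and 149 after IgE. In Mettl3 KO cells they were 75.1, 101 and 20.8 without stimulation and 2436, 2221 and 357 after IgE. Replicate 1 was the highest c-Kit KO library in both conditions, and its unstimulated count was above the stimulated counts of replicates 2 and 3, so the c-Kit KO groups overlapped. Among Mettl3 KO libraries, replicate 3 was the lowest in both conditions, and the groups did not overlap. Unstimulated Egr3 was above the mean plus 2 SD of the negative controls in 1 of 3 c-Kit KO and 2 of 3 Mettl3 KO libraries, so its folds, like those of Atf3, rest partly on background.

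Egr3 had IgE responses of 2.90 ± 1.11 in c-Kit KO and 4.68 ± 1.11 in Mettl3 KO cells on the log2 scale. The stimulated difference between genotypes was 1.59 ± 1.09, and 0.83 to 3.77 with libraries left out, and that between responses was 1.78 ± 1.57. With the replicate number as a block the c-Kit KO response was 2.84 ± 0.67. Paired by number, the responses in c-Kit KO and Mettl3 KO cells were 2.98 and 5.002, 1.65 and 4.45, and 3.05 and 4.03. Each pair thus had the greater response in Mettl3 KO cells, by 0.98 to 2.80, while the libraries' levels differed widely within every group. Without the stimulated c-Kit KO library of replicate 1, the fitted c-Kit KO response was 0.72 ± 1.00 and the difference between responses 3.97 ± 1.34. Without the unstimulated c-Kit KO library of the same number they were 4.57 ± 1.17 and 0.11 ± 1.53. In these fits without the block, 1 library could thus widen or remove the difference. Each of them left out 1 library of a pair and kept its partner. With the replicate block and all libraries, the difference between responses was 1.66 ± 0.94.

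Nfil3 encodes a bZIP factor that acts mostly as a repressor and is needed for several innate lymphoid lineages. It gave 60.3, 83.8 and 95.1 normalized counts in c-Kit KO US cells and 523, 528 and 904 after IgE. Mettl3 KO cells gave 70.0, 123 and 87.6 without stimulation and 853, 1208 and 925 after IgE. Each stimulated library was above every unstimulated one. The stimulated genotypes overlapped, with c-Kit KO replicate 3 between Mettl3 KO replicates 1 and 3.

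The IgE response of Nfil3 was 3.03 ± 0.31 in c-Kit KO and 3.41 ± 0.31 in Mettl3 KO cells on the log2 scale, an 8.14-fold and a 10.7-fold higher level. The stimulated genotypes differed by 0.61 ± 0.31 and the responses by 0.39 ± 0.44. Same-numbered pairs gave 3.10 in c-Kit KO against 3.59 in Mettl3 KO cells, 2.64 against 3.28, and 3.24 against 3.39. The gap between genotypes was thus at most 0.64 in a pair, the narrowest range of the 5 factors.

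Ets1 encodes the founding member of the ETS family, best known from lymphocytes. Its normalized counts were 35.6, 63.1 and 49.3 in c-Kit KO US cells and 252, 184.6 and 262 after IgE. Mettl3 KO cells gave 41.6, 51.8 and 54.7 without stimulation and 433, 395 and 262 after IgE. As for Nfil3, every stimulated library was above every unstimulated one. The stimulated genotypes overlapped only through replicate 3 of the Mettl3 KO cells, at 261.6 against 262.3 in c-Kit KO replicate 3. For Nfil3 the Mettl3 KO library within the c-Kit KO range was that of replicate 1.

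Ets1 responded to IgE by 2.23 ± 0.30 in c-Kit KO and 2.88 ± 0.29 in Mettl3 KO cells on the log2 scale, or 4.70-fold and 7.35-fold. The stimulated difference between genotypes was 0.64 ± 0.29, and the responses differed by 0.64 ± 0.42. By pair the c-Kit KO and Mettl3 KO responses were 2.79 and 3.35, 1.53 and 2.91, and 2.39 and 2.24. Replicate 3 was the exception, with the greater response in c-Kit KO cells, and replicate 2 had the widest gap.

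**Figure D1:**
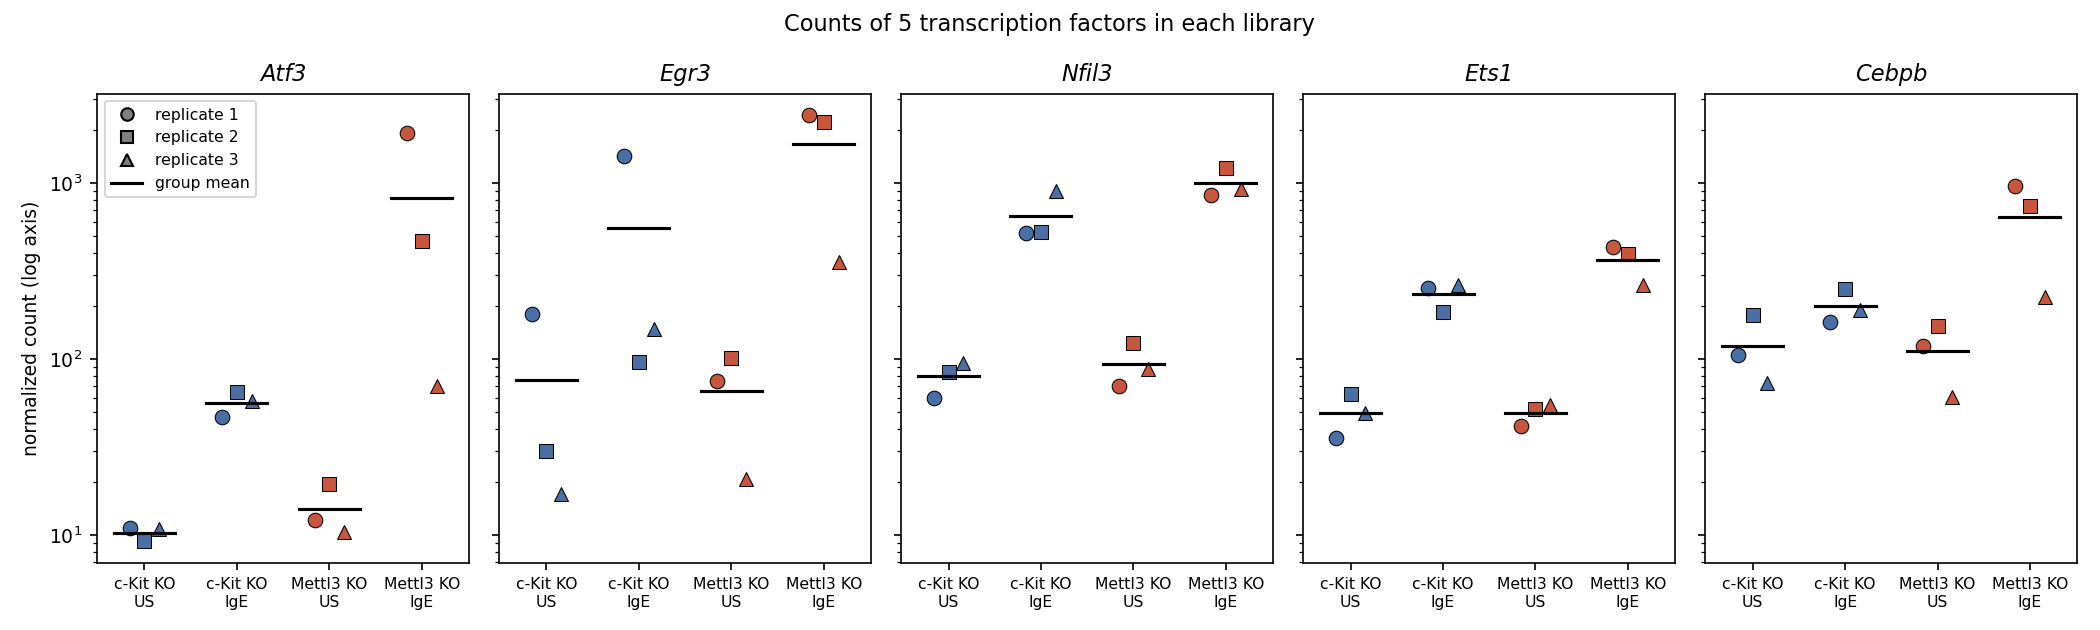
Normalized counts of the 5 factors (log axis) in each of 12 libraries, by genotype and stimulation; points are libraries, with their shape giving the replicate number, and bars are group means. Replicate 3 of the stimulated Mettl3 KO cells is the lowest of its group for Atf3 (70.4), Egr3 (357), Ets1 (262) and Cebpb (223.5).

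Ordered by group mean, Atf3, Nfil3 and Cebpb each had stimulated Mettl3 KO cells highest and stimulated c-Kit KO cells next, at 823 ± 981 and 56.4 ± 9.06 for Atf3, 996 ± 188 and 651 ± 219 for Nfil3, and 639 ± 377 and 200.3 ± 45.5 for Cebpb (SD, n = 3). Egr3, at 1671 ± 1143 and 557 ± 753, and Ets1, at 363 ± 90.1 and 233 ± 42.2, had the same order at the top. Apart from Atf3, whose stimulated groups did not overlap, the neighbours at the top overlapped in all 4 remaining genes. For Egr3, Ets1 and Cebpb only replicate 3 of the stimulated Mettl3 KO cells lay within the stimulated c-Kit KO range. For Nfil3 only replicate 1 did. The unstimulated groups were the 2 lowest for each factor, overlapped in each, and were 14.1 ± 4.87 (Mettl3 KO) and 10.3 ± 0.976 (c-Kit KO) for Atf3. For Cebpb the neighbours stimulated c-Kit KO, 200.3, and unstimulated c-Kit KO, 119 ± 53.8, overlapped as well, and for Egr3 stimulated c-Kit KO overlapped with both unstimulated groups, at 75.4 ± 90.3 (c-Kit KO) and 65.5 ± 40.8 (Mettl3 KO).

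Between stimulated and unstimulated libraries, 3 of the 5 factors (Atf3, Nfil3 and Ets1) did not overlap in c-Kit KO cells and 5 of 5 did not in Mettl3 KO cells, always with the stimulated libraries higher. Over all 545 genes, 18.3% and 26.2% were higher without overlap in these comparisons. Between genotypes after IgE, 1 of the 5, Atf3, was higher without overlap in Mettl3 KO cells, against 14.3% of all genes. These contrasts chose the 5 factors, and nothing is read from the counts.

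**Figure D2:**
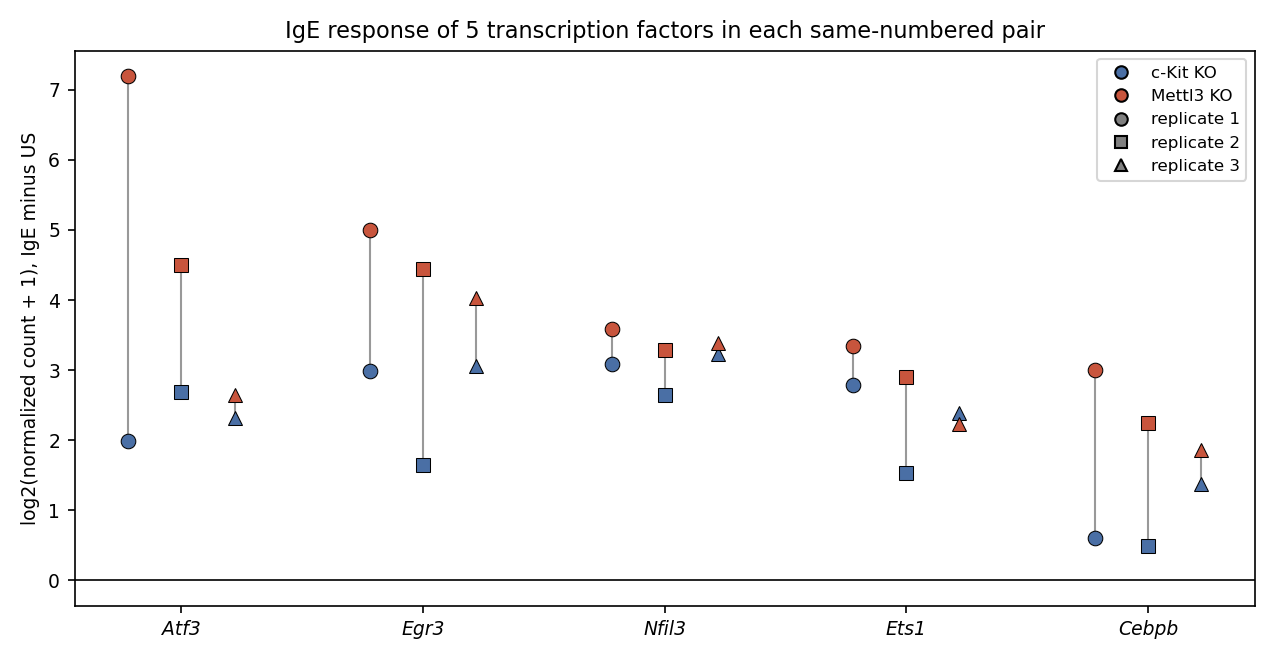
IgE response of each factor in same-numbered pairs, as log2(normalized count + 1) of stimulated minus unstimulated cells, for c-Kit KO and Mettl3 KO cells; a grey line joins both genotypes of a replicate number. The lines are long for Atf3, Egr3 and Cebpb in replicates 1 and 2, up to 5.20 for Atf3, and at most 0.64 for Nfil3.

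Placed side by side, the differences between responses were 3.45 for Atf3, 1.78 for Egr3, 1.77 for Cebpb, 0.64 for Ets1 and 0.39 for Nfil3. With libraries left out they ran from 1.58 to 4.201 for Atf3, 1.35 to 2.18 for Cebpb, 0.26 to 1.01 for Ets1 and 0.22 to 0.70 for Nfil3. That of Egr3 ran from 0.11 to 3.97 and overlapped all of these. The order describes values that entered the choice of the 5 factors. The standard error was above the estimate for Nfil3 (0.44) and close to it for Egr3 (1.57). In the pairs labelled replicate 3 the differences were 0.32 for Atf3, 0.98 for Egr3, 0.49 for Cebpb, -0.15 for Ets1 and 0.15 for Nfil3, so the wider gaps of Atf3 and Cebpb were those of replicates 1 and 2. The median difference over all 545 genes was 0.31 in replicate 3, 0.11 in replicate 2 and -0.08 in replicate 1.

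The stimulated differences between genotypes were also fitted under another scaling. In stimulated cells the median log2 difference between genotypes over all genes was 0.20 with housekeeping scaling and 0.02 with TMM scaling over all endogenous genes. With TMM the stimulated differences were 3.69 for Atf3, 1.35 for Egr3, 1.48 for Cebpb, 0.43 for Ets1 and 0.39 for Nfil3, each positive. For the Mettl3 KO response the median was 0.02, and 0.17 when only the more abundant housekeeping genes were used.

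Without stimulation, Mettl3 KO minus c-Kit KO was -0.20 ± 1.14 for Egr3, 0.22 ± 0.32 for Nfil3, -0.0039 ± 0.30 for Ets1 and -0.10 ± 0.52 for Cebpb on the log2 scale. These standard errors leave room for differences of some size, above all for Egr3, which was not above background in 3 of the 6 libraries. Atf3 was at background in all 6, so its value, 0.42 ± 0.95, carries no information on a resting difference. Over all genes 0 were called by edgeR between unstimulated genotypes (0.0%), 7 had an unadjusted p under 0.05 (1.28%), and DESeq2 also called 0. The sign for Egr3 was positive with the replicate block, 0.29 ± 0.70.

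The other transcription factors and their regulators on the panel numbered 62, of which 58 were tested; Maff, Irf7, Irf8 and Msc did not pass the count filter. In c-Kit KO cells 6 of the 58 rose and 4 fell with IgE, against 12.1% and 6.79% of all 545 genes. With the replicate block 9 rose and 9 fell, against 16.3% and 12.3% of all genes. With only the more abundant housekeeping genes 8 rose and 3 fell, against 72 and 28 of all 545 genes. In Mettl3 KO cells 15 rose and 5 fell, against 22.0% and 10.6% of all genes, and with the block 18 rose and 7 fell, against 25.9% and 15.0%. The median log2 response of the 58 was -0.20 in c-Kit KO and 0.06 in Mettl3 KO cells, beside -0.05 and 0.02 over all genes. The c-Kit KO count was 2 in all without the unstimulated library of replicate 1, 3 without that of replicate 3, and 5 and 4 without the stimulated libraries of replicates 2 and 3. Over all genes the calls fell as well, from 103 to 46, 57, 81 and 51 in these fits. The Mettl3 KO count was 12 and 10 without the unstimulated libraries of replicates 2 and 3, and 12 and 11 without the stimulated libraries of replicates 1 and 2, where calls over all genes went from 178 to 140, 134, 121 and 133. Under the block, Jun, Klf4, Irf1, Irf5, Stat5b, Ikzf1, Hes1 and Id3 joined the c-Kit KO calls, and Jun, Cebpa, Nfkb1, Gata2, Id2 and Smad1 joined the Mettl3 KO calls, which lost Gata3.

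Early-response factors outside the 5 were Egr2, Nr4a1, Nr4a2, Klf4, Klf10 and Myc. Egr2, the EGR relative of Egr3, gave 20.5, 20.7 and 7.18 normalized counts in c-Kit KO US cells and 291, 176 and 137 after IgE. Mettl3 KO cells gave 15.2, 28.0 and 13.9, and 373, 411 and 186. Egr2 was thus higher in every stimulated library, and its replicates lay closer together than those of Egr3. Its log2 responses were 3.66 ± 0.48 in c-Kit KO (adjusted p = 0.000616 by edgeR) and 4.10 ± 0.47 in Mettl3 KO cells (adjusted p = 0.000251 by edgeR), higher in 3 of 3 pairs of each. Unstimulated Egr2 was above background in 1 of 6 libraries, so both folds depend on the background.

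Nr4a1, an orphan nuclear receptor of the immediate early response, rose in Mettl3 KO cells by 4.90 ± 1.16 (adjusted p = 0.0152 by edgeR). In c-Kit KO cells its value was 3.11 ± 1.21 (adjusted p = 0.110 by edgeR). The stimulated counts were 433, 35.3 and 46.9 in c-Kit KO and 2646, 481 and 111 in Mettl3 KO cells, with replicate 1 the highest of each. Its relative Nr4a2 rose in Mettl3 KO cells by 2.01 ± 0.65, beside 1.41 ± 0.66 in c-Kit KO cells, which was not called. Klf10 and Myc were called in neither genotype, nor was Klf4 without the block.

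Of 11 bZIP factors other than Atf3, Nfil3 and Cebpb, 10 were tested, 1 rose in c-Kit KO and 3 rose in Mettl3 KO cells, and none fell by edgeR's adjusted p. Over all genes 12.1% rose and 6.79% fell in c-Kit KO cells, and 22.0% rose and 10.6% fell in Mettl3 KO cells. Batf, which pairs with Jun proteins and IRF factors, went from 520.5, 553 and 508 to 820.3, 915 and 1127 in c-Kit KO cells. In Mettl3 KO cells it went from 609, 583 and 527 to 1515, 1785 and 1163. The stimulated libraries were above the unstimulated ones in both genotypes, and the stimulated Mettl3 KO libraries above all c-Kit KO ones. The log2 responses of Batf were 0.86 ± 0.22 in c-Kit KO and 1.38 ± 0.22 in Mettl3 KO cells (adjusted p = 0.0237 and 0.000850 by edgeR).

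The AP-1 subunits Fosb and Fosl1 rose in Mettl3 KO cells by 3.08 ± 1.03 and 1.51 ± 0.48 (adjusted p = 0.0487 and 0.0306 by edgeR). In c-Kit KO cells their values were 2.39 ± 1.03 and 1.14 ± 0.48, which did not pass. Jun, a partner of both, had 1.36 ± 0.58 in c-Kit KO and 1.48 ± 0.58 in Mettl3 KO cells and passed in neither, although both passed with the replicate block. The differences between the genotypes' responses were 0.68 for Fosb, 0.37 for Fosl1 and 0.12 for Jun, each smaller than its standard error.

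The C/EBP relatives of Cebpb were not called in any comparison. Cebpa had a log2 response of 0.30 ± 0.53 in c-Kit KO and 1.15 ± 0.50 in Mettl3 KO cells, and was called in Mettl3 KO cells with the replicate block. Cebpd had -0.22 ± 0.38 and -0.02 ± 0.38, and Cebpg -0.33 ± 0.32 and 0.30 ± 0.30. Their stimulated Mettl3 KO means were low, 38.0 ± 17.6 for Cebpa, 19.8 ± 5.75 for Cebpd and 33.4 ± 7.62 for Cebpg (SD, n = 3). Of their 6 unstimulated libraries, 1 (Cebpa), 1 (Cebpd) and 2 (Cebpg) were above background. Batf3 and Crem had log2 responses between -0.57 and 0.53 and were not called either.

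Among NFAT and NF-kB family genes, Nfatc1, a calcium-regulated factor, rose in both genotypes, by 0.93 ± 0.28 in c-Kit KO and 1.80 ± 0.28 in Mettl3 KO cells. Nfatc2 fell in both, with log2 responses of -1.18 ± 0.34 and -1.498 ± 0.34. The NF-kB inhibitor genes Nfkbia and Nfkbiz rose in Mettl3 KO cells by 2.25 ± 0.51 and 2.13 ± 0.66, and had 0.87 ± 0.52 and 1.19 ± 0.66 in c-Kit KO cells, where neither passed. The 6 genes of this list had a median stimulated difference between genotypes of 0.95, beside 0.20 over all genes. By edgeR's adjusted p 0 of 6 passed, against 0.917% of all genes.

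Among IRF and STAT genes, Irf4, which partners with Batf and ETS factors, rose by 3.75 ± 0.89 in c-Kit KO and 3.27 ± 0.86 in Mettl3 KO cells. Its stimulated counts were 75.2, 42.4 and 569 in c-Kit KO and 114, 126 and 482 in Mettl3 KO cells. Replicate 3 was thus the highest for Irf4 in both genotypes, unlike for Egr2, Egr3 and Nr4a1. Unstimulated Irf4 was above background in 1 of 6 libraries. Irf5 and Stat5a rose in Mettl3 KO cells by 1.79 ± 0.48 and 1.18 ± 0.38, beside 1.56 ± 0.52 and 0.33 ± 0.38 in c-Kit KO cells. Stat4, a factor of IL-12 signalling, fell by 1.36 in c-Kit KO and by 1.66 in Mettl3 KO cells on the log2 scale.

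Among lineage and other factors, Gata3 rose by 1.95 ± 0.52 in c-Kit KO and 1.52 ± 0.51 in Mettl3 KO cells, the latter without a call under the replicate block. Ikzf1 and Runx2 rose in Mettl3 KO cells by 1.02 ± 0.24 and 1.40 ± 0.48, beside 0.72 ± 0.24 and 0.76 ± 0.48 in c-Kit KO cells. Id2, an inhibitor of basic helix-loop-helix factors, rose in c-Kit KO cells by 1.35 ± 0.32 and had 0.74 ± 0.32 in Mettl3 KO cells. The ETS family gene Erg fell by 1.43 and 1.75. Smad1 fell by 1.06 in c-Kit KO cells, and Gata6 and Id3 fell by 1.08 and 2.26 in Mettl3 KO cells, each with a value of the same sign in the other genotype. Stimulated Erg was above background in 1 of 3 c-Kit KO and 0 of 3 Mettl3 KO libraries, and stimulated Id3 in 2 and 0 of 3, so the sizes of their falls depend on the background.

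**Figure D3:**
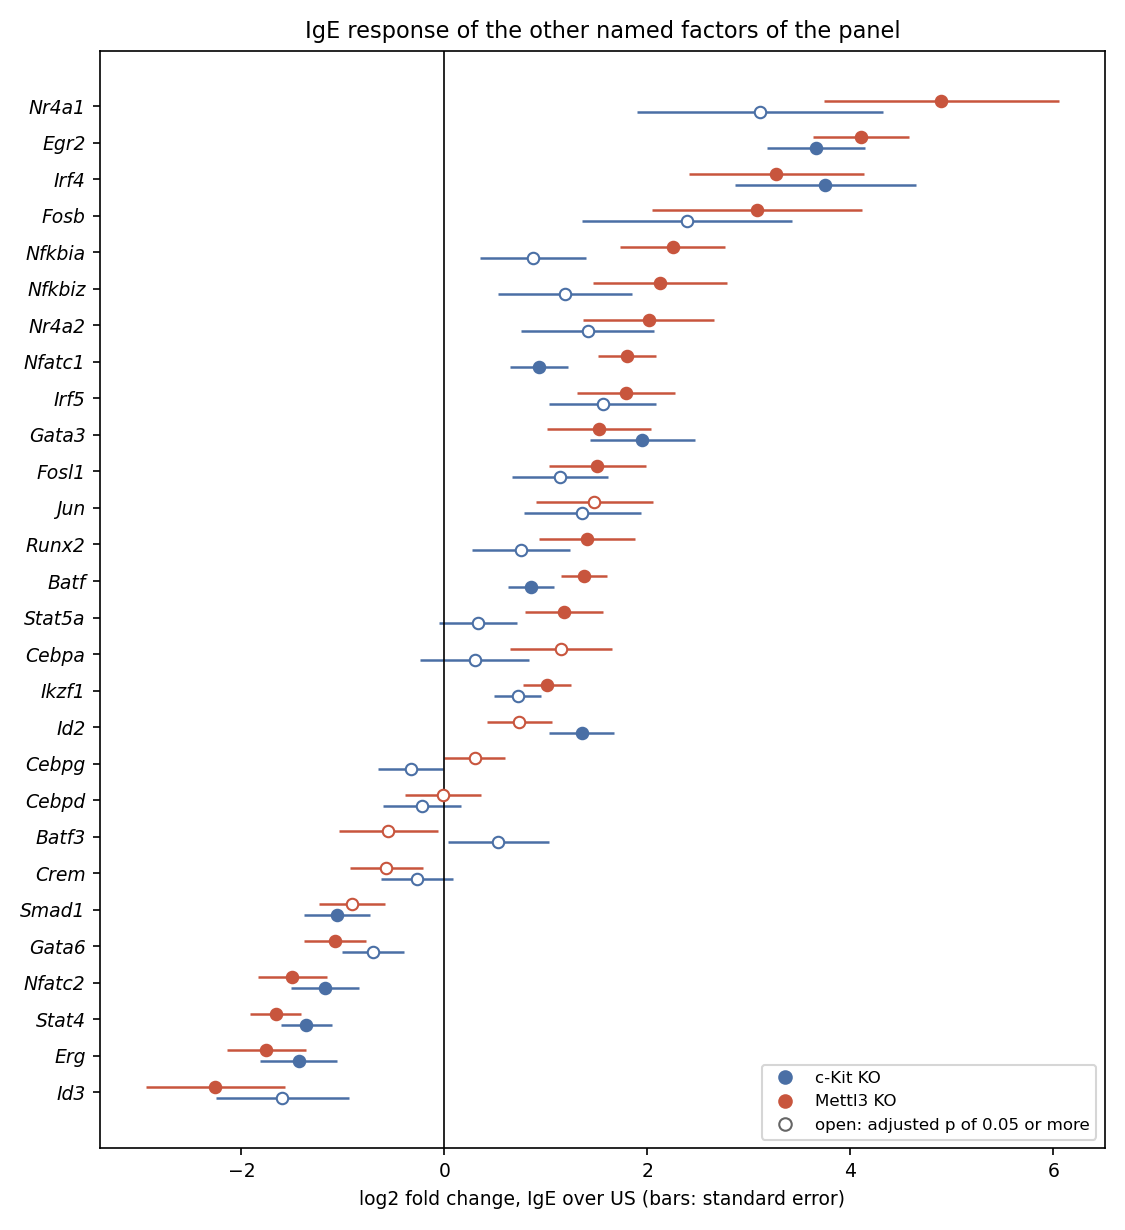
Log2 fold change of IgE over US cells for 28 other factors in c-Kit KO and Mettl3 KO cells; bars are standard errors and open points have an adjusted p of 0.05 or more by edgeR. Egr2 (3.66 and 4.10) and Irf4 (3.75 and 3.27) are called in both genotypes, Nr4a1 (3.11 and 4.90) in Mettl3 KO cells.

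Of the other factors that rose, 5 were called in both genotypes (Batf, Egr2, Gata3, Irf4 and Nfatc1), which is 5 of 6 in c-Kit KO and 5 of 15 in Mettl3 KO cells. Of the 16 that rose in either genotype, 9 had 1 or more of the 6 unstimulated libraries not above background, and 2 of these (Fosl1 and Irf5) had none above it, so their folds have the limit given for Egr2. A call in 1 genotype and not in the other does not show a difference between them. The difference itself passed for 0 of the 58 by edgeR's adjusted p, for 2 at an unadjusted p under 0.05 (Nfkb1 and Nfkbie), and for 0 by DESeq2. Over all genes it passed for 0.0% with adjustment, for 4.22% without and for 0.367% by DESeq2. The median difference between responses was 0.22 over the 58 and 0.11 over all genes.

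Between stimulated genotypes 0 of the 58 passed by edgeR's adjusted p, 8 had an unadjusted p under 0.05 and DESeq2 called 1, Nfkb1; over all genes 0.917% passed with adjustment, 14.5% without and 4.22% by DESeq2. The 8 were Batf, Cebpg, Nr4a1, Nfatc1, Nfkb1, Nfkbia, Nfkbie and Stat5a, each higher in Mettl3 KO cells. Without the stimulated Mettl3 KO library of replicate 3, 3 of the 58 were called by edgeR (Nfatc1, Nfkb1 and Nfkbie), at log2 differences of 1.18, 1.58 and 1.17, and so were 33 of all 545 genes. Without stimulation 0 of the 58 passed by edgeR or DESeq2, and 0 had an unadjusted p under 0.05.

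For each of the 5 factors, the 3 genes with the most similar profile were found by the root mean square (RMS) difference of log2 values, centred per gene, over the 12 libraries and 544 other genes. Nearest to Atf3 were Ptgs2, the inducible cyclooxygenase (0.59), Gem, a small GTPase (0.70), and the cytokine gene Tnf (0.77). Ptgs2 gave 98.6, 64.6 and 73.3 in stimulated c-Kit KO and 1365, 397 and 98.5 in stimulated Mettl3 KO cells, where the order of replicates was that of Atf3; in stimulated c-Kit KO cells it was the reverse. Ptgs2 was above background in 1 of 6 unstimulated libraries and Gem in 0. The part of background in their likeness to Atf3 was not tested. Nearest to Egr3 were Tnf (0.81), Nr4a1 (0.86) and Ptgs2 (1.08). Tnf gave 901, 162 and 235 in stimulated c-Kit KO and 8114, 3382 and 324 in stimulated Mettl3 KO cells, where replicate 1 was again the highest in both genotypes.

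Nearest to Nfil3 were the kinase gene Fyn (0.36), the elongation factor gene Ell2 (0.42) and Pdcd1lg2, which encodes the PD-1 ligand PD-L2 (0.43). Nearest to Ets1 were Spry2, a feedback inhibitor of receptor tyrosine kinase signalling (0.42), Nfil3 (0.45) and Il6 (0.46). Spry2 gave 243, 195 and 193 in stimulated c-Kit KO and 232, 283 and 199 in stimulated Mettl3 KO cells, with 42.5 to 62.9 in the unstimulated libraries. Its stimulated genotypes overlapped more widely than those of Ets1, at a log2 difference of 0.18 ± 0.25 against 0.64 ± 0.29. Nearest to Cebpb were Areg, which encodes the growth factor amphiregulin (0.39), Nfkbia (0.47) and Plaur, the urokinase receptor gene (0.48). Areg gave 22.3, 24.2 and 17.6 in stimulated c-Kit KO and 144, 118 and 19.9 in stimulated Mettl3 KO cells. Stimulated Areg was above background in 1 of 3 c-Kit KO and 2 of 3 Mettl3 KO libraries. Areg and Ell2 were above background in 0 of 6 unstimulated libraries. Among the 5 themselves, Nfil3 and Ets1 were the closest pair, at 0.45, and Egr3 and Cebpb the farthest, at 1.60.

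The 5 genes lie on different chromosomes in GRCm39 (GENCODE vM39) and are all protein-coding. Atf3 is at chr1:190902493-190950241 on the minus strand, Egr3 at chr14:70314350-70320063 on the plus strand and Nfil3 at chr13:53121245-53137010 on the minus strand. Ets1 is at chr9:32547517-32669116 and Cebpb at chr2:167530835-167532338, both on the plus strand. Their probes start at bases 387 (Atf3), 518 (Egr3), 1299 (Nfil3), 740 (Ets1) and 1147 (Cebpb) of the RefSeq transcripts named in the count table. Each gene was thus read at 1 place of its transcript, and transcripts that lack that place were not counted.

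RefSeq promoter sequences (GRCm38.p6) matched 3 of the 5, Atf3, Cebpb and Nfil3; Egr3 and Ets1 had no entry. The 250 bases before each start were searched on both strands for sites of the factor families described here. The letters were TGACG (the core of a cAMP response element, which bZIP dimers bind), TGANTCA (AP-1), TTGCGNAA (C/EBP), TTACGTAA (NFIL3), GCGNGGGCG (EGR) and CCGGAAG (ETS), with no overlap among the matches found. TGACG was found once for Atf3, 3 times for Cebpb and once for Nfil3, and GCGNGGGCG once for Nfil3. Of 32851 promoters of that length, 17.8% hold TGACG, 6.75% TGANTCA, 0.670% TTGCGNAA, 0.113% TTACGTAA, 4.70% GCGNGGGCG and 6.91% CCGGAAG. The last 100 bases before the start are shown for these 3 genes because they hold 5 of the 6 matches, which are in capitals, 5′ to 3′ on the gene's strand; CGTCA is TGACG read on the opposite strand.
Atf3: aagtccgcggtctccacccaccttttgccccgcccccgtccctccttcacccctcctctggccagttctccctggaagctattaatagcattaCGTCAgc
Cebpb: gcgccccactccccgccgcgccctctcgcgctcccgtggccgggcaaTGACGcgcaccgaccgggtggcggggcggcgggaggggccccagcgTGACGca
Nfil3: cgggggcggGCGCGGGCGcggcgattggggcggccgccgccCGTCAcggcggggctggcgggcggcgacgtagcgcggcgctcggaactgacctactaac
They lie at chr1:191183334-191183433 (minus strand), chr2:167688815-167688914 (plus strand) and chr13:52981040-52981139 (minus strand). In Atf3 and in Cebpb 1 match lies 7 to 3 bases before the start; the remaining matches lie 53 to 49 bases before it in Cebpb, and in Nfil3 91 to 83 (GCGNGGGCG) and 59 to 55 bases before it. The third TGACG of Cebpb, 180 to 176 bases before the start, is outside the stretch shown. A match describes letters in the window and was not tested as a site of binding.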

How the data were processed

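From 40 ng of RNA a sample the authors obtained barcode counts, deposited raw, with neither scaling nor background correction. Columns were matched to samples by title, and the deposited summary columns were not used. Library sizes were set from 20 housekeeping probes (their geometric mean). The 545 of 734 genes that reached 20 counts in 3 or more libraries were tested with edgeR 4.0.16 in R 4.3.3, by quasi-likelihood tests in 1 model of the 4 groups with Benjamini-Hochberg adjustment in each comparison; called means an adjusted p under 0.05. Standard errors come from the same fit. Alternatives used DESeq2 1.42.0, limma 3.58.1, TMM, other filters and background handling, and fewer libraries. Pairwise values used log2(normalized count + 1).

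The members and gene lists were chosen with earlier results of these data known. Named genes were the 5 factors, other factors called in any comparison, all bZIP and EGR genes, and the 3 nearest profiles of each factor; 1 such gene is not reported here. The labels speak of 3 sets of cultures, and the replicate numbers come from the sample titles; another source numbers the stimulated Mettl3 KO library of replicate 3 differently, so its pairing rests on its title. Deviations from the group means correlated above 0.1 in all 18 same-numbered pairs of libraries (0.136 to 0.521) and in 1 of 36 other pairs, so the numbers were taken to pair the samples. Whether a set is 1 animal is not given in the sources used here, and p-values measure the spread between these cultures.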

Additional observations from a re-analysis of the deposited data

Results flagged for a closer look

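Nfkb1, which encodes the p105 precursor of an NF-kB subunit, was chosen after its values were seen, because all 3 c-Kit KO pairs moved down with IgE and all 3 Mettl3 KO pairs moved up. Its normalized counts went from 950.6, 952 and 817 to 645, 807 and 716 in c-Kit KO cells. In Mettl3 KO cells they went from 1031, 978 and 816 to 1697, 2633 and 869. The paired log2 responses were -0.56, -0.24 and -0.19 against 0.72, 1.43 and 0.09, and their mean difference was 1.07. Replicate 3 of the Mettl3 KO cells barely moved. Fitted responses were -0.33 ± 0.33 and 0.88 ± 0.33, called in neither genotype, though the second was with the replicate block. The difference between them was 1.21 ± 0.46 (adjusted p = 0.993 by edgeR, adjusted over all genes), so that it did not pass.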

How the results depend on the processing

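Of 748 values recomputed under alternatives, 696 kept their direction and call or moved by less than the spread between replicates. With counts under 20 set to 20, the Atf3 response in c-Kit KO cells was 1.31 and its resting genotype difference -0.062; with background subtracted they were 5.04 and -0.062, the Atf3 response in Mettl3 KO cells was 9.41 and the Ets1 responses were 2.69 in c-Kit KO and 3.46 in Mettl3 KO cells. Atf3 is at background in unstimulated cells, which limits its folds. The resting difference of Egr3 was 0.25 by limma, 0.29 with the replicate block and 0.30 with the replicate block without the stimulated Mettl3 KO library of replicate 3, and that of Ets1 was 0.027 by limma and 0.0011 with the replicate block. The count of other factors called in c-Kit KO cells after IgE was 19 by DESeq2, 18 with the replicate block and 20 with the block and without that library. Over all 545 genes, 150, 156 and 160 were called in these fits. Between stimulated genotypes the count of other factors was 1 by DESeq2 and 4 with the block and without that library. Of all 545 genes, 23 and 45 were called there. The causes were not tested.

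Leaving out 1 library or, as chosen after seeing the data, all libraries of 1 replicate number gave these ranges of log2 values. The stimulated difference was 2.13 to 4.43 for Atf3, 0.83 to 3.77 for Egr3, 0.32 to 0.97 for Nfil3, 0.43 to 0.92 for Ets1 and 1.12 to 2.08 for Cebpb. The difference between responses was 1.58 to 4.201 for Atf3, 0.11 to 3.97 for Egr3 and 0.26 to 1.01 for Ets1. The c-Kit KO response was 0.72 to 4.57 for Egr3, 1.99 to 2.59 for Ets1 and 0.50 to 1.17 for Cebpb, and the Mettl3 KO response 4.18 to 6.46 for Atf3. The resting difference was -1.02 to 1.48 for Egr3, -0.019 to 0.41 for Nfil3, -0.19 to 0.21 for Ets1 and -0.40 to 0.32 for Cebpb. Other factors called after IgE numbered 1 to 12 in c-Kit KO and 6 to 22 in Mettl3 KO cells, and 0 to 3 between stimulated genotypes. Over all 545 genes the calls numbered 32 to 108, 71 to 182 and 0 to 33 in these fits.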
